A study of Mus musculus with 26 samples.

Results

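Dbp, Tef, Hlf, Nfil3, Bhlhe40, Bhlhe41, Ciart and Rora form a set of transcription factors that carry the output of the circadian clock or feed back on it. They were chosen by name from textbook knowledge of that pathway, with no measured value in the rule, but earlier results of these data were known by then. All 8 were found among the 50686 genes of the count table, and all 8 passed the filter on low counts that left 17286 genes for testing. RNA-seq was made from brown adipose tissue (BAT, labelled supraclavicular) of 26 male C57BL/6J mice aged 12 to 16 weeks, 1 library per mouse. Adiponectin-Cre, which is active in all fat cells, was used to delete Mllt4 (Afdn), the gene for the junction protein Afadin, giving fat-specific Afadin knock-out (FAKO) mice, and their littermates served as controls. Whether the littermates carry floxed alleles is not given in the sources used here. All mice lived at thermoneutrality for 2 weeks (30 °C in the sample labels, 29 °C in the study's methods), and some were then moved to 5 °C for 6 h before BAT was taken. The thermoneutral groups held 7 control mice and 7 labelled FAKO, and the cold groups held 5 and 7 in the same order.

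In the mammalian clock, CLOCK and BMAL1 bind E-box sequences and switch on the Per, Cry and Rev-erb (Nr1d1, Nr1d2) genes, whose products then repress them, so that the loop turns about once a day in nearly every tissue, brown fat included. The output factors sit around this loop. DBP, TEF and HLF, the PAR bZIP family, activate genes through D-box sequences, and NFIL3 (E4BP4) represses through the same sequences. BHLHE40 and BHLHE41 (DEC1 and DEC2) are repressors that compete at E-boxes, CIART (CHRONO) represses CLOCK and BMAL1, and RORA activates genes such as Arntl, which encodes BMAL1, through the RORE sequences that the Rev-erb proteins occupy to silence them.

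Sequence upstream of the members is shown because the clock factors above act through short words in it and the members moved in different directions. RefSeq gave the 250 bases before the transcription start of 7 of the 8 members, and Bhlhe40 had no entry. The 5 stretches below are from GRCm38.p6, run 5′ to 3′ on the strand of the gene, and carry in capitals the E-box CACGTG in Ciart, Tef and Bhlhe41, the cAMP response element TGACGTCA in Hlf, and TGACCTA, the reverse strand of the RORE word TAGGTCA, in Nfil3. They lie at chr3:95882252-95882478 (Ciart, minus strand), chr15:81811164-81811413 (the second of Tef's promoters, plus strand), chr6:145865559-145865670 (Bhlhe41, minus strand), chr11:90390918-90391167 (Hlf, minus strand) and chr13:52981040-52981069 (Nfil3, minus strand). Stretches that GENCODE annotates as exon were left off, apart from the 30 bases shown for Nfil3.
Ciart: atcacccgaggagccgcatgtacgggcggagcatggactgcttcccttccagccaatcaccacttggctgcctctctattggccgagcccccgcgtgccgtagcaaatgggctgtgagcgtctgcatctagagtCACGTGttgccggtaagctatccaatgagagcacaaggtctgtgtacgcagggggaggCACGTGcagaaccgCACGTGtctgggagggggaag
Tef: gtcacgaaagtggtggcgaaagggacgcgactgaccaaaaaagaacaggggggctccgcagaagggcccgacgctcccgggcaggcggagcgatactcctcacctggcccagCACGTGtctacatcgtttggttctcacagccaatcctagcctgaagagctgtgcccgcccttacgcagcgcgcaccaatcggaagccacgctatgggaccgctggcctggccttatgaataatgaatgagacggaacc
Bhlhe41: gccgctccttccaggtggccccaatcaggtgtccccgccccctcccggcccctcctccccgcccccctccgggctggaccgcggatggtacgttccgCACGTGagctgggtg
Hlf: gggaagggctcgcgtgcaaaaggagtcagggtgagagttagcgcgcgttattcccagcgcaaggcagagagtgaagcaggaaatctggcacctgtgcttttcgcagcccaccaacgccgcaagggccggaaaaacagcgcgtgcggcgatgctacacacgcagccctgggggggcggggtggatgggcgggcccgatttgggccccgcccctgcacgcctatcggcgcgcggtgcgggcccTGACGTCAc
Nfil3: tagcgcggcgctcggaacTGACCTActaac

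Ciart held 3 E-boxes in this window, with first bases 116, 58 and 44 bases before its start, and Bhlhe41 and each of Tef's annotated promoters held 1. The E-box of Tef's first promoter, which is not shown, lies in sequence that GENCODE annotates as exon. CACGTG was present in 6.02% of the 32851 mouse promoter windows of the same length. The full cAMP response element began 9 bases before the start of Hlf and occurred in 1.55% of the windows. The RORE word began 12 bases before the start of Nfil3, in sequence that GENCODE annotates as exon, and occurred in 2.23% of the windows. Both strands were searched, and the short word TGACG, which lies inside the full element of Hlf on both strands and also occurred 59 bases before the start of Nfil3, was present in 17.8% of the windows. The other words searched, CACGTT (3.85% of the windows), the D-box words TTANGTAA (2.06%) and TTATGNAA (3.07%) and the RORE word TGGGTCA (3.24%), were not found in the windows of the members, and the windows of Dbp and Rora held none of the words searched. A match is a description of these letters and was not tested for binding.

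Each library held 12705969 to 25732258 counts assigned to genes. Afdn was checked first. Its level at thermoneutrality was 151 to 214 counts per 1000000 (CPM) in control mice and 154 to 231 CPM in mice labelled FAKO, and the difference did not pass the threshold in edgeR (log2 fold change -0.01, SE 0.08, adjusted p = 0.99). After cold it was 67.9 to 79.2 CPM in control mice and 53.3 to 65.3 CPM in mice labelled FAKO without overlap, and again it did not pass (-0.33, SE 0.09, adjusted p = 0.12). The counts cover the whole gene, the deleted part included or not, and the groups are therefore named here by their labels. By immunoblot, the study reported a smaller cold rise of Afadin protein in BAT of FAKO mice than in controls. RNA counts do not measure that protein. Summed markers of brown adipocytes (8 of 8 found) were 6785 to 8544 CPM at thermoneutrality and 24906 to 31652 CPM after cold. Ucp1, a gene of this list, had medians of 1004 CPM in control mice and 813 CPM in mice labelled FAKO at thermoneutrality. After cold its medians were 15960 and 16651 CPM, so much of the summed level after cold is this gene. The rise of the sum is therefore not a measure of brown adipocyte content. Skeletal muscle markers (8 of 8 found) ranged from 1.24 to 7453 CPM between mice, over 1000 CPM in 10 of 26 mice that were spread over the 4 groups. At thermoneutrality these were 2 of 7 control mice and 3 of 7 labelled FAKO, and after cold 2 of 5 control mice and 3 of 7 labelled FAKO.

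Most of the set differed between temperatures. In control mice 7 of the 8 members passed the threshold (Benjamini-Hochberg adjusted p below 0.05 over all tested genes), 2 higher (Nfil3, Ciart) and 5 lower (Dbp, Tef, Hlf, Bhlhe40, Bhlhe41). In mice labelled FAKO all 8 passed, with Rora as a further higher member. These counts are read against a broad difference, since 65.0% of all tested genes passed in control mice (31.6% higher, 33.4% lower) and 68.6% in mice labelled FAKO (33.7% higher, 34.9% lower). In each label 6 members had groups that did not overlap between temperatures, against 46.4% of all tested genes in control mice and 40.4% in mice labelled FAKO. The size of the change is therefore given below beside the share of all tested genes that fell or rose further. The 2 cold comparisons rest on separate mice. The hour of day at which BAT was collected is not given in the sources used here, and its part in the differences between temperatures was not tested. In bulk tissue, fewer cells of a type and less RNA per cell cannot be told apart.

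**Figure D1:**
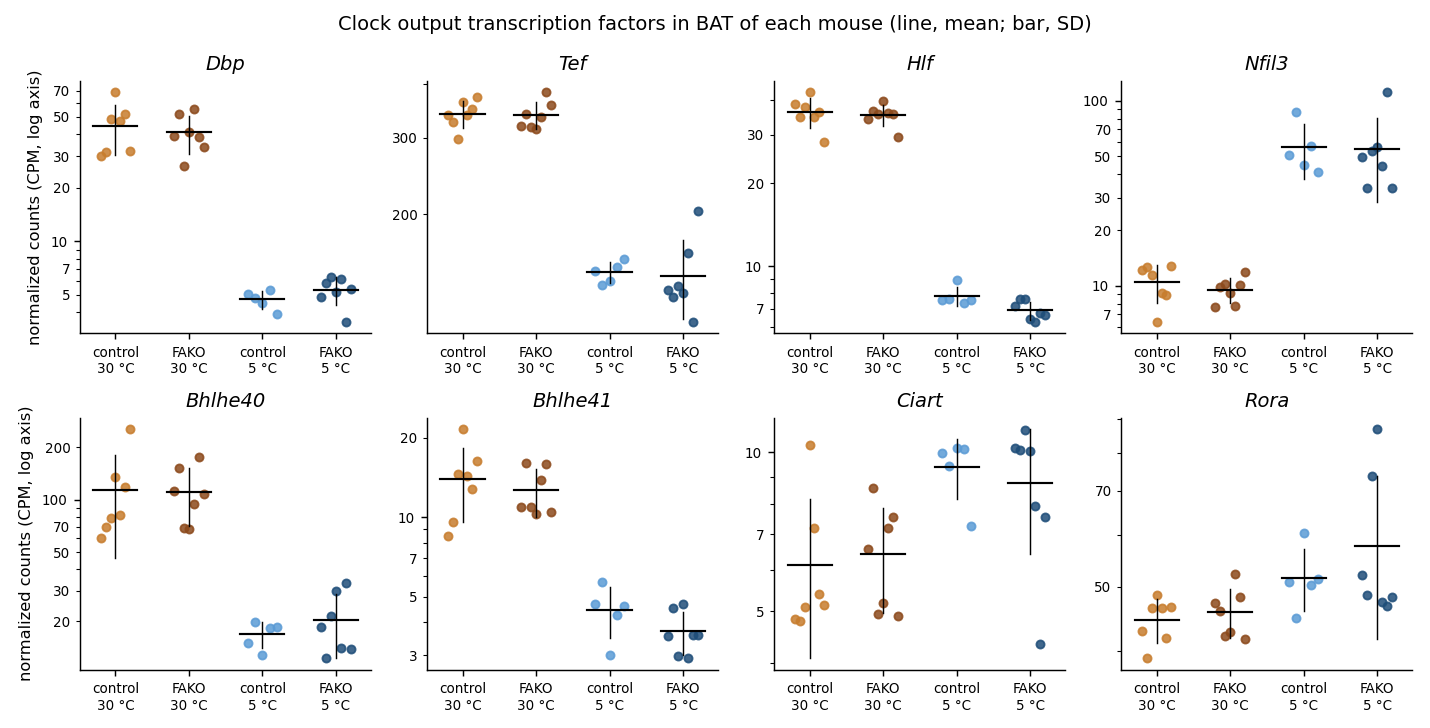
Level of each of the 8 members in every mouse, in CPM on a log axis whose range differs between panels, for the 4 groups. Points are mice, horizontal lines are group means and vertical bars are SDs. For Dbp, Tef, Hlf, Bhlhe40 and Bhlhe41 every mouse at 5 °C lies below every mouse at thermoneutrality, for Nfil3 every mouse at 5 °C lies above, and for Ciart and Rora the temperatures overlap.

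The PAR bZIP activators all fell. Dbp, on chromosome 7 (45705088 to 45710203, plus strand, mm10), was at 30.3, 47.5 and 68.7 CPM in the lowest, median and highest control mouse at thermoneutrality. After cold the 5 control mice had 5.04, 4.81, 4.51, 5.35 and 3.92 CPM. The lowest level of any mouse at thermoneutrality, labelled FAKO or not, was still 26.5 CPM, so the temperatures were widely separated. In control mice Dbp was 9.40-fold lower after cold (log2 fold change -3.23, SE 0.21, adjusted p = 6e-13), and 0.596% of all tested genes fell further. In mice labelled FAKO the lowest, median and highest levels were 26.5, 39.2 and 55.2 CPM at thermoneutrality and 3.54, 5.38 and 6.29 CPM after cold. The fall was 7.7-fold (-2.94, SE 0.18, adjusted p = 1.7e-13), and 0.793% of genes fell further. Dbp shares 539 of its 2993 exon bases with Sphk2 on the opposite strand, and whether the counting used strand is not given in the sources used here. Sphk2, the sphingosine kinase gene, moved the other way from Dbp, by 0.41 (SE 0.11, adjusted p = 0.0026) in control mice and 0.43 (SE 0.10, adjusted p = 0.00065) in mice labelled FAKO.

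Hlf (chromosome 11, 90336536 to 90390895, minus strand) showed the tightest change of the set. Control mice had 28.1, 36.2 and 42.7 CPM (lowest, median, highest) at thermoneutrality and 7.53, 7.59, 8.88, 7.33 and 7.55 CPM after cold. Mice labelled FAKO had 29.6, 35.7 and 39.8 CPM at thermoneutrality and 6.28, 6.75 and 7.56 CPM after cold. All cold mice thus stood far under all thermoneutral mice, and the SE of the change was the smallest among the members in both cold comparisons. Hlf was 4.64-fold lower after cold in control mice (log2 fold change -2.22, SE 0.09, adjusted p = 5.2e-17) and 5.12-fold lower in mice labelled FAKO (-2.36, SE 0.08, adjusted p = 1.4e-18), a fall exceeded by 2.64% and 1.73% of all tested genes.

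Tef (chromosome 15, 81802421 to 81826863, plus strand) changed least of the PAR bZIP genes. Its levels were 299, 340 and 373 CPM in control mice at thermoneutrality and 148, 138, 140, 151 and 158 CPM after cold. In mice labelled FAKO they were 315, 336 and 382 CPM at thermoneutrality and 113, 134 and 203 CPM after cold. The temperatures did not overlap, although mouse 28 of the FAKO cold group, at 203 CPM, stood above the other 11 cold mice. Tef was 2.32-fold lower after cold in control mice (log2 fold change -1.22, SE 0.10, adjusted p = 4.1e-11) and 2.34-fold lower in mice labelled FAKO (-1.23, SE 0.09, adjusted p = 2.9e-12), a fall exceeded by 11.4% and 10.4% of all tested genes.

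As Tef fell less than Dbp and Hlf, the make-up of the PAR bZIP pool shifted with temperature. Levels of different genes were compared per length, as CPM per 1000 exon bases (RPKM). The summed level of Dbp, Tef and Hlf had a median of 62.4 RPKM in control mice and 61.1 RPKM in mice labelled FAKO at thermoneutrality, against 21.6 and 19.7 RPKM after cold. The share of Tef in that sum rose from a median of 67.1% to 86.9% in control mice and from 69.1% to 86.3% in mice labelled FAKO, while the share of Dbp went from 24.8% to 7.79% and from 22.2% to 8.69%. The shares of Tef did not overlap between temperatures, from 61.1% to 75.9% over the 14 thermoneutral mice and from 84.2% to 90.3% over the 12 cold mice. These shares are descriptions of the same values and were not tested.

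Nfil3, the repressor that binds the same D-box sequences, rose while the activators fell. Nfil3 (chromosome 13, 52967209 to 52981073, minus strand) had 6.41, 11.4 and 12.8 CPM in control mice at thermoneutrality and 50.7, 87.4, 45.2, 56.9 and 41.3 CPM after cold. Mice labelled FAKO had 7.68, 9.84 and 11.9 CPM at thermoneutrality and 33.6, 49.7 and 111 CPM after cold. The lowest cold mouse was thus above the highest thermoneutral mouse in either label. The rise was 5.34-fold in control mice (log2 fold change 2.42, SE 0.24, adjusted p = 1.3e-09) and 5.73-fold in mice labelled FAKO (2.52, SE 0.23, adjusted p = 2e-10), and 1.68% and 1.74% of all tested genes rose further. Per length, the 3 activators together outweighed Nfil3 at thermoneutrality, with a median ratio of 10.6 (9.21 to 23.9) in control mice and 13.4 (10.4 to 17.4) in mice labelled FAKO. After cold the ratio was 0.865 (0.469 to 1.1) in control mice and 0.804 (0.303 to 1.72) in mice labelled FAKO. By the median, the activators together thus no longer outweighed Nfil3, with a wide spread between mice. The ratio depends on the exon lengths used and was not tested.

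The DEC repressors fell. Bhlhe40 (chromosome 6, 108660629 to 108666925, plus strand) varied most between thermoneutral mice, with 60.3, 82.1 and 255 CPM in control mice and 68.4, 108 and 176 CPM in mice labelled FAKO. After cold control mice had 15.1, 19.9, 12.8, 18.2 and 18.5 CPM, and mice labelled FAKO had 12.3, 18.5 and 33.2 CPM. No cold mouse reached the lowest thermoneutral mouse. Bhlhe40 was 6.76-fold lower after cold in control mice (log2 fold change -2.76, SE 0.35, adjusted p = 1e-07) and 5.44-fold lower in mice labelled FAKO (-2.44, SE 0.30, adjusted p = 5.6e-08), a fall exceeded by 1.27% and 1.52% of all tested genes. The highest mouse, control mouse 7 with 255 CPM, also had 5481 CPM of summed skeletal muscle markers, the most at thermoneutrality. In the 16 mice with at most 1000 CPM of those markers the change was -2.29 in control mice (SE 0.39, adjusted p = 7.3e-05) and -2.68 in mice labelled FAKO (SE 0.36, adjusted p = 5.9e-06).

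Bhlhe41 (chromosome 6, 145858243 to 145865558, minus strand) was less abundant and moved the same way as Bhlhe40. Control mice had 8.50, 14.3 and 21.6 CPM at thermoneutrality and 4.69, 5.71, 3.00, 4.26 and 4.61 CPM after cold. Mice labelled FAKO had 10.3, 10.9 and 16.1 CPM and then 2.93, 3.59 and 4.71 CPM. The temperatures did not overlap. The level was 3.16-fold lower in control mice (log2 fold change -1.66, SE 0.20, adjusted p = 5.3e-08) and 3.41-fold lower in mice labelled FAKO (-1.77, SE 0.18, adjusted p = 2.3e-09), and 6.09% and 4.63% of all tested genes fell further. Bhlhe41 had as few as 40 counts in a cold library, the lowest of any member in any library, and shares 1280 exon bases with Gm43909 on the opposite strand, which had 164 counts in all 26 libraries against 4182 for Bhlhe41.

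Ciart and Rora moved little. Ciart (chromosome 3, 95878503 to 95882251, minus strand), the repressor of CLOCK and BMAL1, had 4.81, 5.14 and 10.3 CPM in control mice at thermoneutrality and 9.96, 9.41, 10.2, 10.1 and 7.26 CPM after cold. Mice labelled FAKO had 4.89, 6.56 and 8.57 CPM and then 4.33, 10.1 and 11.0 CPM. The groups overlapped in both labels, through control mouse 4 at thermoneutrality, which had the highest level of its group, and through the 3 lowest mice of the FAKO cold group. The rise was 1.54-fold in control mice (log2 fold change 0.62, SE 0.20, adjusted p = 0.0094) and 1.36-fold in mice labelled FAKO (0.44, SE 0.19, adjusted p = 0.04), and 20.1% and 28% of all tested genes rose further. The second call was lost on leaving out any 1 of 10 of the 14 mice (0.35 to 0.45, adjusted p 0.051 to 0.11), mice 22, 23, 24 and 25 after cold and mice 8, 10, 11, 12, 13 and 14 at thermoneutrality, and under 6 other settings, with library size alone in place of TMM factors giving the lowest value, 0.10. Ciart, whose window holds 3 E-boxes, rose in control mice, while Tef and Bhlhe41, whose windows hold the same word, fell.

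Rora (chromosome 9, 68653786 to 69388246, plus strand), the nuclear receptor that activates Arntl, had 38.9, 46.4 and 48.7 CPM in control mice at thermoneutrality and 50.8, 44.8, 60.3, 50.4 and 51.4 CPM after cold. Mice labelled FAKO had 41.7, 46.0 and 52.3 CPM and then 46.8, 48.5 and 86.8 CPM. The change was 0.21 in control mice (SE 0.12, adjusted p = 0.13) and did not pass the threshold, with a 95% interval of -0.03 to 0.46. In mice labelled FAKO it passed (0.33, SE 0.11, adjusted p = 0.011), with mice 24 and 25 of the cold group at 73.6 and 86.8 CPM, while the other 5 cold mice stood between 46.8 and 52.1 CPM. Of all tested genes, 38.1% had a higher change than Rora in control mice and 32.9% in mice labelled FAKO. Mice 24 and 25 had 3732 and 7453 CPM of skeletal muscle markers and the lowest TMM factors of all 26 libraries, 0.769 and 0.759, and scaled by library size alone their levels were 56.6 and 65.9 CPM. Without mouse 25 the change was 0.20 (adjusted p = 0.052), in mice with at most 1000 CPM of muscle markers it was 0.08 (adjusted p = 0.48), and with library size alone it was -0.03 (adjusted p = 0.84). The same restriction on muscle markers brought Rora in control mice past the threshold, at 0.25 (SE 0.09, adjusted p = 0.028), with 2 of the 5 cold control mice left out.

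**Figure D2:**
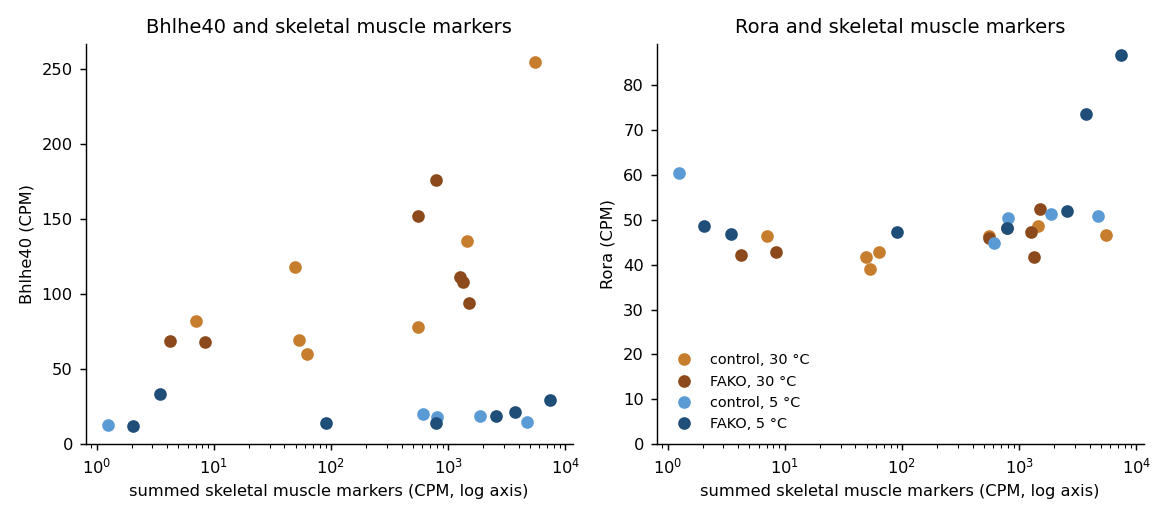
Levels of Bhlhe40 (left) and Rora (right) in CPM against the summed level of 8 skeletal muscle markers in CPM on a log axis, 1 point per mouse, coloured by group. The highest Bhlhe40 level, 255 CPM, and the 2 highest Rora levels, 73.6 and 86.8 CPM, belong to mice with 3732 CPM of muscle markers or more, while cold control mouse 16 with 4703 CPM of them had 50.8 CPM of Rora.

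The changes reordered the set. Per length, the medians in control mice at thermoneutrality ran from Tef (43.2 RPKM) over Bhlhe40 (17.4), Dbp (15.9), Nfil3 (5.63), Hlf (5.42), Rora (3.55) and Ciart (2.27) to Bhlhe41 (2.13 RPKM). After cold they ran from Nfil3 (25.0 RPKM) over Tef (18.8), Ciart (4.41), Rora (3.89), Bhlhe40 (3.87), Dbp (1.61) and Hlf (1.13) to Bhlhe41 (0.686 RPKM). Neighbours whose ranges overlapped were not separated, namely Bhlhe40 with its neighbours Tef and Dbp, Nfil3 with Hlf, and Ciart with its neighbours Rora and Bhlhe41 at thermoneutrality, and Ciart with Rora, Rora with Bhlhe40, and Dbp with Hlf after cold. The ranges of Nfil3 (20.4 to 43.2 RPKM) and Tef (17.5 to 20.03 RPKM) did not overlap in cold control mice. In mice labelled FAKO the same gene stood first at each temperature, Tef with a median of 42.7 RPKM at thermoneutrality and Nfil3 with 24.5 RPKM after cold, but there the cold ranges of Nfil3 (16.6 to 54.7 RPKM) and Tef (14.4 to 25.8 RPKM) overlapped.

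No member passed the test between the labels. Mice labelled FAKO and control mice were compared at each temperature, and 0 of the 8 members passed in either comparison, against 0.0810% of all tested genes at thermoneutrality and 0.139% after cold. None had an unadjusted p below 0.05 in edgeR, and DESeq2 also called 0. The log2 differences (FAKO label minus control) lay between -0.14 (Bhlhe41) and 0.07 (Ciart) at thermoneutrality, and between -0.25 (Bhlhe41) and 0.28 (Bhlhe40) after cold. The precision differed between members. After cold the 95% interval for Tef ran from -0.21 to 0.16 and that for Dbp from -0.24 to 0.58, whereas for Bhlhe40 it ran from -0.35 to 0.91, so in Bhlhe40 only a larger difference would have been detectable. The smallest adjusted p was 0.39, for Hlf after cold (-0.17, SE 0.09).

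The cold responses of the labels were then compared with each other, as the change with cold in mice labelled FAKO minus that in control mice. 0 of 8 members passed, none had an unadjusted p below 0.05, and DESeq2 called 0, against 1.16% of all tested genes. The differences ranged from -0.18 for Ciart (SE 0.28, adjusted p = 0.80) to 0.31 for Bhlhe40 (SE 0.43, adjusted p = 0.77). For Dbp the interval of the difference was -0.23 to 0.81, for Nfil3 -0.53 to 0.73, for Hlf -0.37 to 0.08 and for Tef -0.27 to 0.24. The call of Rora in mice labelled FAKO and its absence in control mice do not show a difference between labels, since the difference itself was 0.12 (SE 0.17, adjusted p = 0.77).

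**Figure D3:**
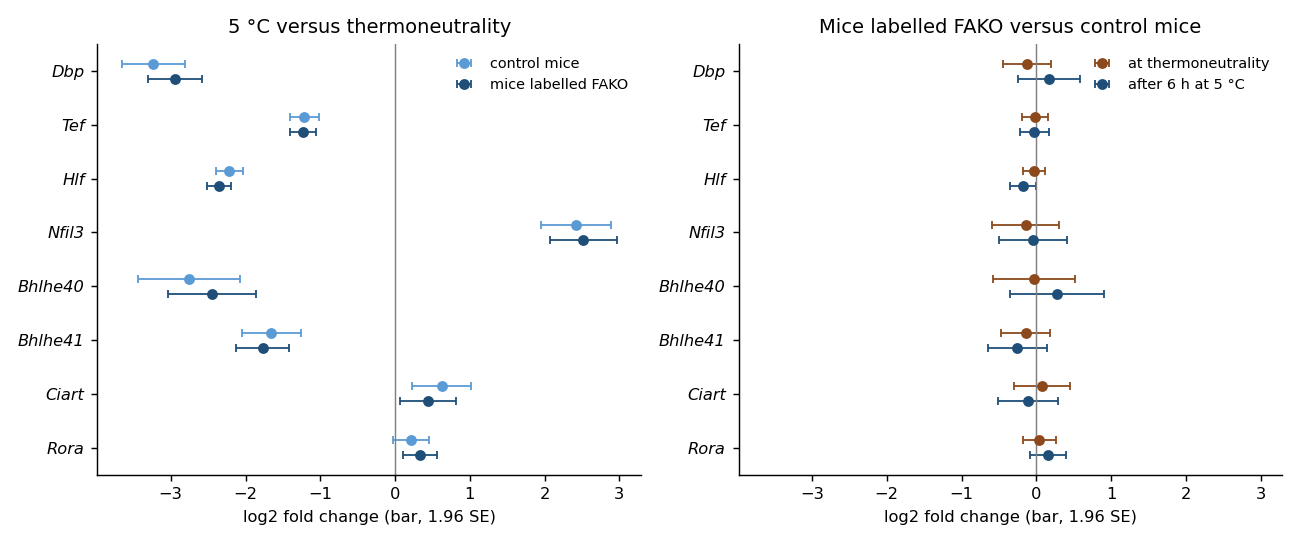
Log2 fold changes of the 8 members (edgeR, bars 95% intervals) on a common horizontal scale, on the left for 5 °C against thermoneutrality in control mice and in mice labelled FAKO, on the right for mice labelled FAKO against control mice at each temperature. The cold changes run from -3.23 for Dbp to 2.52 for Nfil3, and the differences between labels from -0.25 to 0.28.

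The rest of the clock is the context of these factors, and its genes were taken as lists that overlap one another. The counts of every list below are read beside the 65.0% of all tested genes that passed in control mice and the 68.6% in mice labelled FAKO. Of 12 core clock genes outside the set, 7 rose and 2 fell in control mice, and 7 rose and 3 fell in mice labelled FAKO, with median log2 fold changes of 0.80 and 0.47 against -0.01 and -0.03 over all tested genes. Arntl, which encodes BMAL1, rose by 4.74 (SE 0.26, adjusted p = 1.2e-14) and 4.70 (SE 0.25, adjusted p = 5.6e-15), its partner gene Clock by 1.77 (SE 0.06, adjusted p = 1.4e-18) and 1.63 (SE 0.05, adjusted p = 8e-19), and the repressor gene Cry1 by 2.11 (SE 0.13, adjusted p = 9.5e-14) and 1.73 (SE 0.12, adjusted p = 9.4e-13). Per3, a period gene, fell by 3.62 (SE 0.16, adjusted p = 1.5e-16) and 3.92 (SE 0.14, adjusted p = 2.6e-18). All 4 genes listed as driven by ROREs (Arntl, Npas2, Clock, Cry1) rose in both labels. Npas2 was near the floor at thermoneutrality, with 0 to 5 counts per library in control mice and 1 to 6 in mice labelled FAKO. Cry1 is on the E-box list as well. Nfil3, which has a RORE word in its window, also rose, and any part of that word in the rise was not tested.

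The E-box list was split, with 4 of 9 genes higher and 3 lower in control mice and 4 higher and 4 lower in mice labelled FAKO, and median changes of -0.16 in both. Nr1d1, which encodes REV-ERBα, fell by 1.32 (SE 0.21, adjusted p = 4e-06) in control mice, and Per3 also fell, whereas Cry1 and Per1 rose. Genes reported as targets of the PAR bZIP factors moved both ways. Of 10, 5 rose and 3 fell in each label, with medians of 0.53 and 0.29. Lpl, encoding lipoprotein lipase, rose by 2.05 (SE 0.12, adjusted p = 3.4e-14) and Gys2, a glycogen synthase gene, by 1.79 (SE 0.20, adjusted p = 7.8e-09) in control mice, while the nuclear receptor gene Ppara fell by 1.17 (SE 0.12, adjusted p = 2.8e-09).

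Among 12 clock modifiers, which set the stability and modification of clock proteins, 4 rose and 4 fell in control mice, and 6 rose and 4 fell in mice labelled FAKO (medians 0.11 and 0.15). Among 12 genes that cycle in many mouse tissues, 7 rose and 4 fell in control mice, and 7 rose and 5 fell in mice labelled FAKO (medians 0.56 and 0.50). Tspan4, a tetraspanin gene of that list, fell by 2.38 in control mice (SE 0.16, adjusted p = 4.9e-13) and by 1.62 in mice labelled FAKO (SE 0.13, adjusted p = 3.4e-11), and the difference of these responses, 0.76 (SE 0.19, unadjusted p = 0.0006), had an adjusted p of 0.0502 in edgeR. No gene of any of these lists passed in either comparison of labels or in the difference of the cold responses by edgeR.

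**Figure D4:**
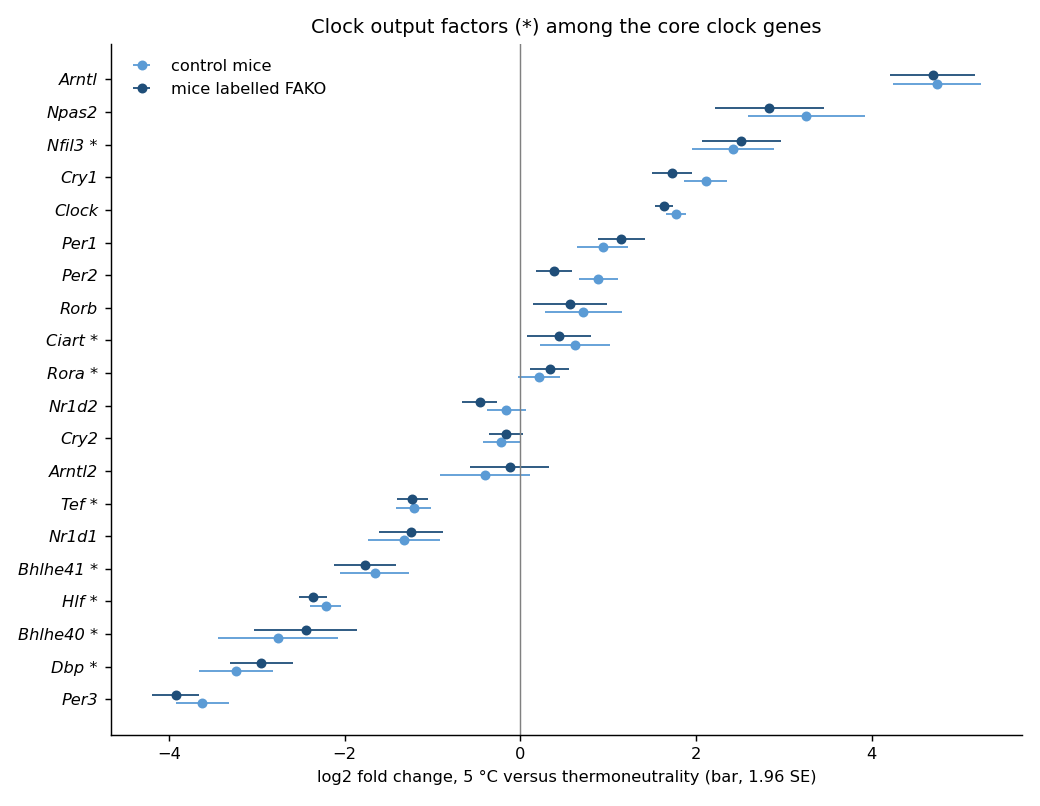
Log2 fold changes from thermoneutrality to 5 °C (edgeR, bars 95% intervals) of the 8 members, marked with an asterisk, and of 12 core clock genes, sorted by the value in control mice. Arntl lies highest at 4.74 and 4.70 and Per3 lowest at -3.62 and -3.92, with Nfil3 next to Npas2 and Cry1, and Dbp, Bhlhe40, Hlf and Bhlhe41 next to Per3.

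Mice of one group also differed from each other, and some members did so together. After the mean of each group was removed, log2 CPM values of the 28 pairs of members were correlated over the 26 mice, with permutation of mice within groups (100000 resamples, two-sided, adjusted over the pairs). Dbp and Ciart varied together (Pearson r = 0.75, permutation p = 7e-05, adjusted p = 0.002, and Spearman rho = 0.64, permutation p = 0.0014, adjusted p = 0.039). Between temperatures, in contrast, their levels differed in opposite directions. Without the 2 mice farthest from the median of Dbp r was 0.67, and leaving out any single mouse gave 0.68 to 0.78 with an adjusted p below the threshold each time. Within groups r was 0.79 in control mice at thermoneutrality (exact permutation p = 0.017), 0.74 in mice labelled FAKO at thermoneutrality (exact permutation p = 0.058) and 0.79 in mice labelled FAKO after cold (exact permutation p = 0.074). The corresponding rho values were 0.79, 0.64 and 0.46 (exact permutation p = 0.048, 0.14 and 0.30), and after adjustment over the 84 within-group tests of the 28 pairs no exact p for r of this pair was below 0.27. No r was computed within the cold control group, which held 5 mice.

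Dbp and Nfil3 varied in opposition (Pearson r = -0.56, permutation p = 0.002, adjusted p = 0.028), but by rank the pair missed the threshold (Spearman rho = -0.51, permutation p = 0.012, adjusted p = 0.085). Without the 2 farthest mice r was -0.51, and the pair passed in 21 of the 26 fits that left out 1 mouse (r from -0.63 to -0.46). The number of pairs past the threshold was 1 without control mouse 2, 4, 5 or 6 at thermoneutrality or mouse 27 of the FAKO cold group, and 4 without control mouse 21 or mouse 24 of the FAKO group after cold. Within groups r was -0.91 in control mice at thermoneutrality (exact permutation p = 0.0044, adjusted p = 0.17), -0.52 in mice labelled FAKO at thermoneutrality (exact permutation p = 0.23) and -0.79 in mice labelled FAKO after cold (exact permutation p = 0.056), with rho of -0.82, -0.71 and -0.43 (exact permutation p = 0.034, 0.088 and 0.35). Among the 16 mice with at most 1000 CPM of muscle markers 0 of the 28 pairs passed, with r = 0.72 for Dbp and Ciart (permutation, adjusted p = 0.12) and r = -0.55 for Dbp and Nfil3 (permutation, adjusted p = 0.18). With fewer mice a pair of the same r is harder to call. Ciart had as few as 75 counts in a library and Dbp as few as 63, so counting error adds to their spread between mice.

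**Figure D5:**
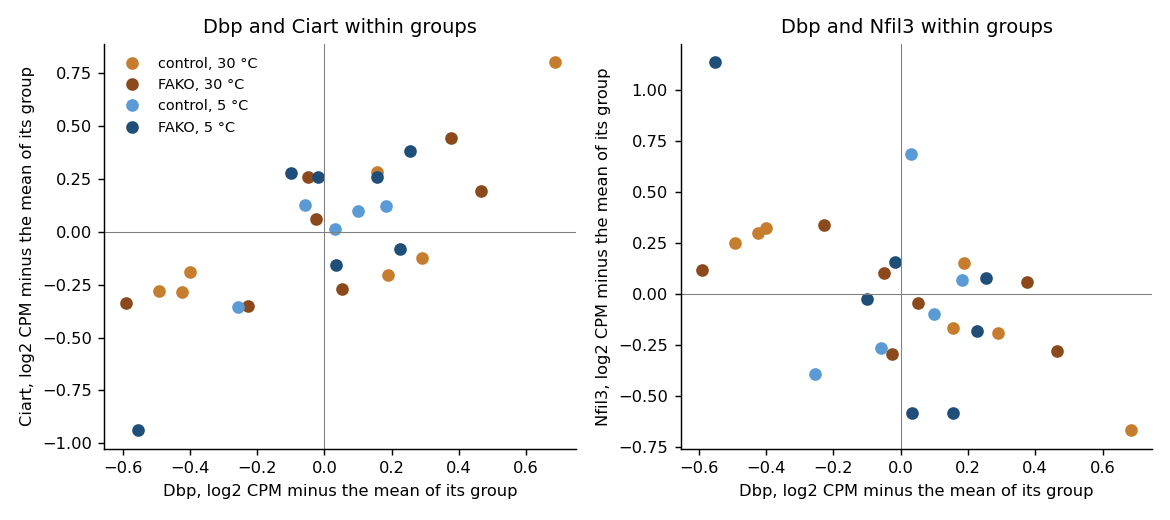
Log2 CPM of Ciart (left) and Nfil3 (right) against log2 CPM of Dbp, each minus the mean of the mouse's own group, 1 point per mouse, coloured by group. Over the 26 mice r was 0.75 for Dbp with Ciart and -0.56 for Dbp with Nfil3, and 1 mouse of the FAKO cold group, mouse 27, lies lowest in Ciart and highest in Nfil3.

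Mouse 27 of the FAKO cold group stood apart in several members at once. It had the highest Nfil3 (111 CPM) and Bhlhe40 (33.2 CPM) and the lowest Dbp (3.54 CPM), Tef (113 CPM) and Ciart (4.33 CPM) of its group. Its neutrophil markers (4 of 4 found) summed to 44.2 CPM, against 3.17 to 14.5 CPM in the other 6 mice of the group. Its red blood cell markers were also the highest of the group, 1428 CPM against 489 to 1243 CPM in the other 6 mice. The neutrophil markers were also higher after cold in general, with 0.349 to 3.58 CPM over the thermoneutral mice and 3.09 to 7.66 CPM over the cold control mice. None of them was at 0 in every mouse, and zeros within single groups were not checked. The summed level of 4 nuclear-retained RNAs was 8951 to 11779 CPM at thermoneutrality, 14840 to 16273 CPM in cold control mice and 10340 to 13577 CPM in cold mice labelled FAKO. The part of any of these measures in the levels of the members was not tested. Without mouse 27 the cold change of Nfil3 in mice labelled FAKO was still past the threshold, as it was in each fit that left out 1 mouse (2.25 to 2.61).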

How the data were processed

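Total RNA libraries (TruSeq Stranded, Ribo-Zero Gold) of BAT from 26 mice were sequenced by the authors, aligned to mm10 with STAR 2.5.2b and counted over GENCODE M13 genes with featureCounts 1.5.2. The deposited values are raw counts per gene, whole numbers that were not normalized. The strand setting of the counting is not given in the sources used here.

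Counts were tested as deposited with the quasi-likelihood F-test of edgeR 4.0.16 (legacy form, R 4.3.3) in 1 model with a term per group over all 26 mice, after filterByExpr and TMM normalization, and p-values were adjusted by Benjamini-Hochberg over the 17286 tested genes with a threshold of 0.05. SEs are the log2 fold change divided by the square root of F, and 95% intervals use the normal approximation. CPM values use TMM factors, RPKM values divide them by the union of exons in GENCODE M21, and log2 CPM for correlations has a prior count of 2. Group differences between mice were judged against the spread between mice, each mouse being 1 library, and library totals of 12705969 to 25732258 counts limit the precision of genes with few reads. DESeq2 1.42.0, other normalizations, filters and sets of mice were tried as alternatives, and a covariate or limit on skeletal muscle markers was added after seeing the data. Correlations used SciPy 1.17.1 and NumPy 2.4.6.

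The members, gene lists and tests were chosen with earlier results of these data known. All 8 members are named in each comparison, and of each list up to 4 genes past the threshold with the largest absolute log2 fold change and a mean of at least 1 CPM. 1 gene that would belong to the core clock and E-box lists is not reported here and is left out of their counts and medians. Other genes were named for their overlap, likeness or role as checks. Upstream sequences and transcript starts are from RefSeq on GRCm38.p6.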

Additional observations from a re-analysis of the deposited data

Results flagged for a closer look

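Among 32 combinations of member and group checked for a single mouse far from the rest of its group, 4 met Dixon's 95% criterion, and chance alone marks about 1 in 20 groups. Hlf in control mouse 18 after cold, at 8.88 CPM, stood above the other 4 mice of the group, of which the next had 7.59 CPM, and this mouse had the lowest skeletal muscle markers of all (1.24 CPM). Ciart in control mouse 21 after cold, at 7.26 CPM, stood below the others, of which the next had 9.41 CPM.

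Mouse 27 of the FAKO cold group was marked for 2 members. Its Nfil3 level of 110.8 CPM compared with 56.2 CPM in the next highest mouse, and its Ciart level of 4.33 CPM with 7.53 CPM in the next lowest. The neutrophil markers of this mouse summed to 44.2 CPM, its red blood cell markers to 1428 CPM and its skeletal muscle markers to 3.49 CPM. The part of any of them in the levels of Nfil3 and Ciart was not tested. Without this mouse the rise of Ciart with cold in mice labelled FAKO kept its side of the threshold, as did that of Nfil3.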

How the results depend on the processing

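No paired analysis was possible because each mouse has its own number and the groups share none. The calls of Dbp, Tef, Hlf, Nfil3, Bhlhe40 and Bhlhe41 in both cold comparisons and of Ciart in control mice kept their direction and their side of the threshold in each alternative tried and in each fit without 1 mouse. In control mice 8 members passed in mice with at most 1000 CPM of muscle markers, a limit chosen after seeing the data, and 7 in each other setting. In mice labelled FAKO 6 to 8 passed, the changes being in Ciart and Rora, and leaving out 1 mouse also gave 6 to 8. In both comparisons of labels and in the difference of the cold responses 0 passed in each setting and each fit without 1 mouse.

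With library size alone the cold change of Rora in mice labelled FAKO was -0.027. That scaling moved the median of all genes to -0.14 in control mice and -0.34 in mice labelled FAKO, so changes under it are read relative to these shifts (upper-quartile factors gave -0.12 and -0.18). Among genes called with cold in mice labelled FAKO library size alone gave 3223 higher and 8384 lower (upper-quartile factors 4694 and 7369, TMM factors 5825 and 6035). Signs of differences between labels that did not pass also turned. At thermoneutrality, library size alone gave 0.062 for Dbp, 0.13 for Tef, 0.13 for Hlf, 0.058 for Bhlhe40 and 0.0054 for Bhlhe41, with an all-gene median of 0.13. Tef was 0.018 with upper-quartile factors, 0.00207 without a filter and 0.0019 with only the groups compared. In mice with at most 1000 CPM of muscle markers the values at thermoneutrality were 0.053 for Tef, 0.033 for Hlf, 0.53 for Bhlhe40 and 0.17 for Bhlhe41, those after cold 0.11 for Tef and -0.10 for Rora and those for the difference of the cold responses 0.052 for Tef, -0.035 for Nfil3, -0.39 for Bhlhe40 and -0.17 for Rora. That difference was also 0.0039 for Tef in DESeq2, 0.000353 for Tef with muscle markers as a covariate, and -0.076 for Nfil3 and -0.11 for Rora with library size alone. The cause of these turns was not tested.

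Leaving out 1 mouse turned the sign of differences that did not pass. At thermoneutrality these ranged from -0.20 to 0.020 for Dbp, -0.042 to 0.026 for Tef, -0.070 to 0.023 for Hlf and -0.17 to 0.31 for Bhlhe40. After cold they ranged from -0.13 to 0.026 for Tef, -0.32 to 0.17 for Nfil3 and -0.19 to 0.011 for Ciart, and for the difference of the cold responses from -0.12 to 0.038 for Tef, -0.17 to 0.31 for Nfil3, -0.022 to 0.46 for Bhlhe40 and -0.0066 to 0.18 for Rora. Pairs of members past the threshold numbered 2, but 7 with library size alone, 1 by rank, 0 in mice with at most 1000 CPM of muscle markers, and 1 to 4 without 1 mouse. Over all genes, the counts behind the background shares were 14, 24 and 200 for the labels at thermoneutrality, the labels after cold and the difference of the cold responses. They were 42, 198 and 466 in DESeq2, 34, 5 and 278 with library size alone, 9, 15 and 27 without a filter, and 13, 5 and 31 in mice with at most 1000 CPM of muscle markers. With only the groups compared the count after cold was 9, and with at least 10 counts in every mouse it was 45. Without 1 mouse they ranged from 7 to 93 (control mouse 7 left out), from 7 to 100 (FAKO mouse 22 left out) and from 49 to 371 (control mouse 7 left out). Low counts limit Bhlhe41, Ciart and, after cold, Dbp, and the hour of collection, the strand of the counting and the cell make-up of the samples limit all values.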

Other observations

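The genes whose mouse-to-mouse pattern was most like that of each member were found by Pearson r of group-centred log2 CPM over the 26 mice. The search covered the 14212 tested genes outside the set that averaged 1 CPM or more. The genes are given as a description of the highest of many values. Dbp was followed by Dmrt2 (r = 0.77), Iqch (0.77) and Xpc (0.76), and Tef by Cyhr1 (r = 0.87), Ublcp1 (0.85) and Crispld1 (0.84). Nfil3 was closest to Senp2 (r = 0.85), Gnl2 (0.83) and Adamts4 (0.81), and Hlf to Snora78, Gm24727 and Trim66 (each r = 0.76). Bhlhe40 was closest to Serpina3n (r = 0.83), Gm38070 (0.82) and Tbc1d2 (0.82), and Bhlhe41 to Dnm3os (r = 0.77), Rhof (0.77) and Slc7a7 (0.76). Ciart was followed by Ankra2 (r = 0.85), Vtn (0.84) and Gm16794 (0.79), and Rora by Cep85l (r = 0.85), Zfp652 (0.84) and Pcnt (0.84). Members were left out of this search, so it does not show how close they are to one another. All these values come from the same 26 libraries and share their depth and scaling.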
